A study of Homo sapiens with 3 samples.

Results

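ARID1B peaks at and around the AP-1 family genes JUN, JUNB, JUND, FOS, FOSB, FOSL1, FOSL2, ATF3, BATF and BATF3 are described here for HEK293FRT cells. These 10 genes were chosen by name, out of 19866 protein-coding genes. The peaks taken were those within 1000 bp of either end of a gene, inside it, within 200 kb of its body, or with one of these genes as nearest protein-coding gene. This gave 7 of the 1792 peaks of replicate 1 and 10 of the 1820 peaks of replicate 2, and 7 of the 1313 regions found in both lists. HEK293FRT is an established human embryonic kidney cell line, and the labels give no treatment and no genotype for any sample. The series held 2 ARID1B chromatin immunoprecipitation (ChIP-seq) replicates and 1 input from these cells, and the input was not analysed here. Neither the antibody nor whether the replicates were separate cultures is stated in the labels, so differences between the lists may be technical. All positions are on hg38.

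AP-1 is a dimeric transcription factor built from Jun proteins and Fos or ATF-type partners, which pair through a leucine zipper and bind DNA through a basic region. JUN and FOS are immediate early genes: growth factors and stress switch them on through MAP kinases without new protein synthesis. ARID1B is a DNA-binding subunit of BAF chromatin remodelling complexes, and AP-1 is known in other cells to recruit such complexes to enhancers.

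FOS and JUN were the members with ARID1B peaks at their own ends, and JUN also had peaks about 86 and 101 kb upstream. No other member had a peak at an end or inside its body in either list. Both FOS and JUN had an end peak in each replicate (2 of 10 members in either list), beside 1.14% of all protein-coding genes for replicate 1 and 1.8% for replicate 2. For regions found in both replicates the count was again 2 of 10, beside 1.05% of all protein-coding genes. With so few genes, chosen with earlier results of these data known, the counts are given as a description and no test was made.

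FOS encodes the Fos protein that pairs with Jun. Its peak lay just upstream of the transcription start, at chr14:75278518-75278716 in replicate 1 with a score of 41 and at chr14:75278477-75278763 in replicate 2 with a score of 122. The score is the authors' own value per peak, of unstated scale, and it serves here mainly to rank peaks within a list. The replicate 1 peak ranked 1480 of 1792, above 16.9% of its list, and the replicate 2 peak ranked 464 of 1820, above 74.2%. The rank thus differed widely between the replicates, while the position did not. The replicate 1 peak lay wholly inside the replicate 2 peak, and their centres were 3 bp apart, at 211 and 208 bp upstream of the start. FOS itself spans chr14:75278828-75282230 on the plus strand.

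JUN encodes the founding Jun subunit and lies at chr1:58780791-58784047 on the minus strand. Its end peak found in both lists was at the transcription end, not the start. Replicate 1 had it at chr1:58779739-58780066 with a score of 54, and replicate 2 at chr1:58779985-58780252 with a score of 37. They lay 725 and 539 bp past the annotated end. These peaks overlapped by only 82 bp, which is 25.0% of the replicate 1 peak and 30.6% of the replicate 2 peak. Their centres were 216 bp apart. JUN therefore had no shared end region under 50% reciprocal overlap or with centres within 200 bp, nor, at 539 bp from the gene end, with a window of 500 bp. FOS was then the one member left. Both scores were low, above 31.2% and 12.5% of their lists.

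At the JUN transcription start a peak was called in replicate 2 only, at chr1:58784111-58784384 with a score of 47. Only 24.4% of the replicate 2 list scored lower. Its centre was 200 bp upstream of the start, close to the 208 and 211 bp seen at FOS, and its nearer edge was 64 bp upstream, beside 65 bp for the FOS peak of the same replicate. The far edge lay 767 bp from the start of JUN-DT, the long non-coding RNA gene read divergently from JUN. In replicate 1 no peak was called there, and without read counts it cannot be said whether signal was absent or below the authors' threshold.

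**Figure D1:**
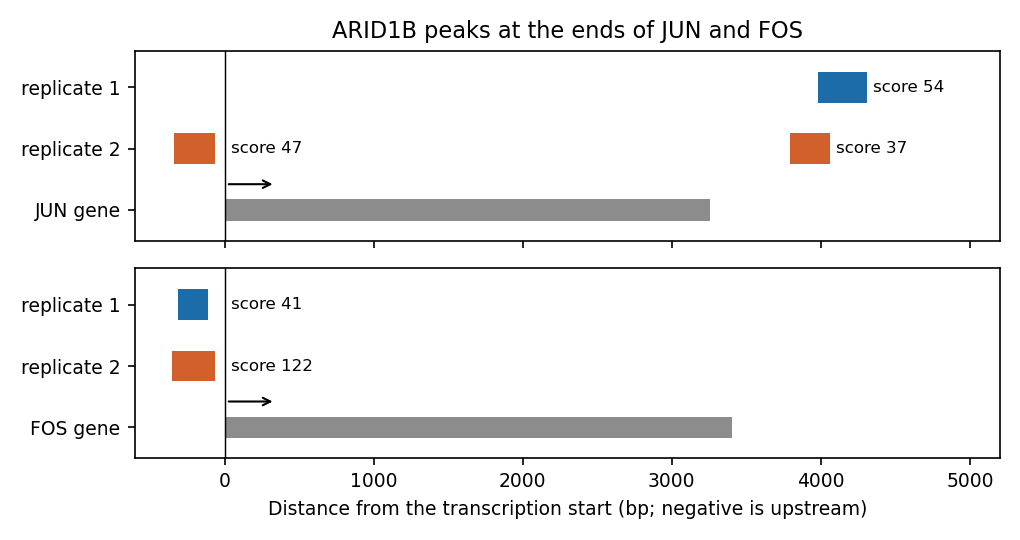
Peaks at the ends of JUN (top) and FOS (bottom), drawn by distance in bp from the transcription start, with negative values upstream; grey bars are gene bodies, arrows give the direction of transcription, and blue and orange bars are peaks of replicates 1 and 2 with their scores. At FOS both replicates have a peak upstream of the start (scores 41 and 122), while at JUN replicate 2 alone has one there (score 47) and both replicates have one past the transcription end (54 and 37).

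For comparison, 178 protein-coding genes with a known strand had a shared region within 1000 bp of an end. Of these, 132 (74.2%) had it at the transcription start only, as FOS did. Another 43 (24.2%) had it at the transcription end only, as JUN did, and 3 had both. Each gene was counted on its own, so a region at the start of a neighbouring gene also enters these counts. The transcription end of ERCC1, for example, lay 641 bp from a region that covered the starts of PPP1R13L and POLR1G. How many of the 43 are such cases was not counted. The JUN end region lay at no end of another protein-coding gene. Among the 135 genes with a shared region at the start, the centre of the region lay upstream in 108, as at FOS, and the median position was 163 bp upstream of the start.

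The promoters of FOS and JUN are shown because peaks covered part of them. The FOS stretch is chr14:75278578-75278827 (plus strand) and the JUN stretch chr1:58784048-58784297 (minus strand), both taken from RefSeq on GRCh38.p14 as the 250 bases before the annotated start, written 5′ to 3′. Capitals mark TGACGT, the core of a cAMP response element, in FOS, and TGACATCA, a variant of the AP-1 site, in JUN.
FOS: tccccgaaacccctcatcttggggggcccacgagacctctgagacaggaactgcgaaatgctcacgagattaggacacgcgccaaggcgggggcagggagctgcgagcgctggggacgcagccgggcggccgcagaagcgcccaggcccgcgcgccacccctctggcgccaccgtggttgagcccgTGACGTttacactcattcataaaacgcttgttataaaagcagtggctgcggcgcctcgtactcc
JUN: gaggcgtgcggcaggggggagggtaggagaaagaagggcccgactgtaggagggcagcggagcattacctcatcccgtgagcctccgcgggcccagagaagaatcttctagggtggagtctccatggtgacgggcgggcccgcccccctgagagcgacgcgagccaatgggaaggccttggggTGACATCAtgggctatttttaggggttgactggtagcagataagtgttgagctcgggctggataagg
Of the FOS stretch, the first 139 bases lay in the replicate 1 peak and the first 186 in the replicate 2 peak. Of the JUN stretch, the first 187 bases lay in the replicate 2 peak. In FOS the capitals occupy bases 64 to 59 upstream of the start, directly beyond the edge of the replicate 2 peak. In JUN they occupy bases 67 to 60 upstream, so the edge of the replicate 2 peak at base 64 falls within them. The replicate 1 peak at FOS ended farther off, 112 bp upstream of the start.

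The same letters occurred in other members that had no peak there. In JUND and FOSB, which encode further Jun and Fos subunits, in FOSL2, the gene of Fra-2, and in ATF3, a stress-induced partner, a stretch of 30 bases around them is given from the same table. They lie at chr19:18281804-18281833 (minus strand), chr19:45467924-45467953 (plus), chr2:28392780-28392809 (plus) and chr1:212565273-212565302 (plus), with the match in capitals.
JUND: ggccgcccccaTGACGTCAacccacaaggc
FOSB: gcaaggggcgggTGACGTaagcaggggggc
FOSL2: ggagtctggggtTGACGTgagtgaatccac
ATF3: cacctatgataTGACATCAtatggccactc
In FOSB and FOSL2 the letters began 60 and 66 bases upstream of the start, near the 64 of FOS, whereas the JUND match shown began 200 bases upstream. JUND also held TGACGT on the other strand, at bases 87 to 82 upstream, which is not shown. No peak of either list covered any of these 4 stretches.

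Of the 10 members, 8 had a promoter in the table, with 9 promoters in all because ATF3 had a pair. On either strand of the 250 bases, TGACATCA was found in 2 members (JUN and ATF3), beside 1.95% of 22199 promoters of protein-coding genes. TGACGTCA was found in 1 member (JUND), beside 2.01%. TGACGT, which is part of TGACGTCA and was searched after the sequences had been seen, was found in 4 members (FOS, FOSB, FOSL2 and JUND), beside 8.0%. The consensus AP-1 site TGACTCA, which reads TGAGTCA on the other strand, was found in 0 of the 8, beside 3.45%. The GC box GGGCGG was found in 7 members, all but JUNB, beside 53.7% of promoters, and it lay inside both FOS peaks and inside the JUN start peak of replicate 2. These are matches of letters in a short window, not sites shown to be bound.

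The shared distal regions of JUN had higher scores in both lists than its end peaks. At chr1:58870288-58870733, about 86 kb upstream, the scores were 60 in replicate 1 and 138 in replicate 2, above 36.7% and 77.7% of their lists. At chr1:58885280-58885679, about 101 kb upstream, they were 153 and 241, above 82.5% and 92.4%. This was the highest-ranking region near any member in both lists, at rank 310 of 1792 and 137 of 1820. A further peak at chr1:58882327-58882654, 98.3 kb upstream, was called in replicate 2 only with a score of 40. The shared peaks overlapped closely here, by 377 and 315 bp, in contrast to the 82 bp at the transcription end.

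All of these distal peaks lay inside JUN-DT, which spans chr1:58785151-58899712, and the one at 101 kb also lay inside LINC02777, another long non-coding RNA gene. JUN was the nearest protein-coding gene to them, and only 1 other protein-coding gene lay within 200 kb of JUN. JUN thus had 3 shared regions within 200 kb, and it was nearest to all 3. Among all protein-coding genes, 1.15% had 3 or more shared regions within 200 kb and 0.362% were nearest to 3 or more. Of the 3, 1 was the transcription end region with its small overlap, and under 50% reciprocal overlap or with centres within 200 bp JUN kept 2 regions and left both of these classes. These lists hold no expression or contact data, so a link between the distal regions and JUN or JUN-DT was not tested.

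Beyond the distance of 200 kb, higher scores still were found upstream of JUN. A region 294 kb upstream at chr1:59077997-59078425 scored 295 and 368, at ranks 71 and 47. A region 431 kb upstream at chr1:59214660-59215142 scored 336 and 293, at ranks 49 and 84. Both were nearer to FGGY, a carbohydrate kinase gene, than to JUN. Downstream of JUN the next peak was 492 kb away inside DAB1, a neuronal adaptor gene, in replicate 1 only with a score of 60.

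**Figure D2:**
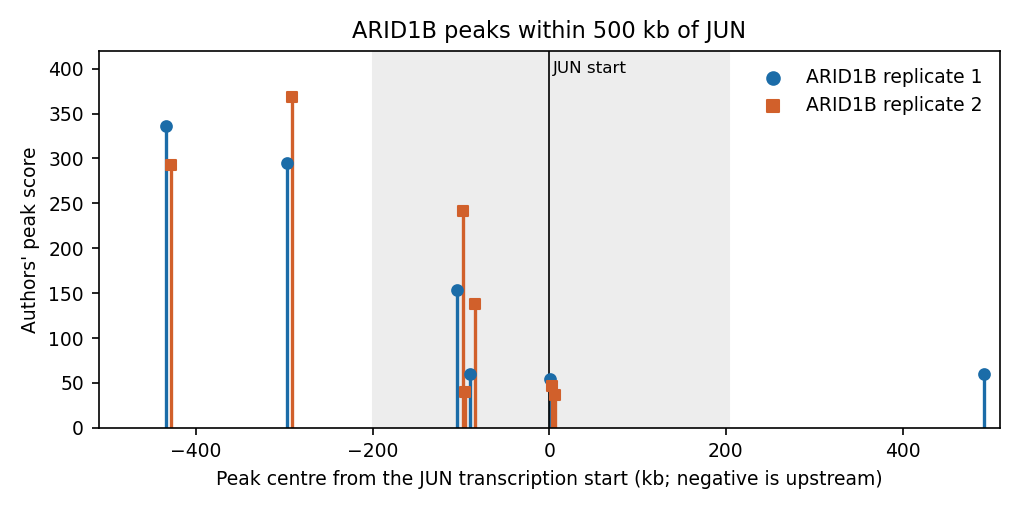
Authors' peak score of every ARID1B peak within 500 kb of JUN, against the distance in kb of the peak centre from the JUN transcription start (negative is upstream); blue circles are replicate 1, orange squares replicate 2, drawn slightly apart so that pairs can be seen, and the grey band marks 200 kb on either side. Scores at JUN itself are 54 or lower, the pair 101 kb upstream stands at 153 and 241, and the pairs 294 and 431 kb upstream stand between 293 and 368.

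JUNB, JUND and FOSB each had 1 shared region within 200 kb, and in all 3 cases it lay at the transcription start of another gene. JUNB encodes a Jun protein that often opposes JUN. Its region at chr19:12919226-12919485, 126 kb away, scored 40 and 72 and covered the start of SYCE2, a gene of the synaptonemal complex of meiosis. JUND encodes the most constantly expressed Jun protein. Its region at chr19:18192806-18193251, 86.4 kb away, scored 115 and 178, above 71.4% and 85.6% of the lists, and reached the start of MPV17L2, a mitochondrial membrane protein gene. FOSB had a region 61.3 kb away at chr19:45406360-45406693, with scores of 43 and 106. This region covered the divergent starts of PPP1R13L, the gene of a p53 inhibitor, and POLR1G, a gene of an RNA polymerase I subunit. The replicate 1 peak lay between these starts. The region also lay within 1000 bp of the transcription end of the DNA repair gene ERCC1.

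FOSL1, the gene of Fra-1, had a peak 18.7 kb away in replicate 2 only, at chr11:65919234-65919465 with a score of 98. It covered the start of DRAP1, a gene of a transcriptional repressor, and lay 172 bp from the start of C11orf68. The nearest shared region was 889 kb from FOSL1. These members sit among many genes: 27 other protein-coding genes lay within 200 kb of JUNB, 23 of FOSL1, 16 of JUND and 14 of FOSB, beside a median of 6 over all protein-coding genes. For none of the 4 was the member the nearest gene of the peak.

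FOSL2, ATF3, BATF and BATF3 had no peak within 200 kb in either list. BATF and BATF3 encode Jun partners known from immune cells. BATF is separated by 240 kb from FOS, and its nearest peak, 244 kb away, was the FOS peak itself. ATF3 and BATF3 are neighbours 65.6 kb apart and shared their nearest region, which lay 1310 kb from ATF3 at chr1:211259044-211259345 and was nearest to RCOR3. It scored 83 in replicate 1 and 185 in replicate 2. FOSL2 was farthest, with its nearest peak 2590 kb away. By this distance, 83.0% of protein-coding genes had a nearer shared region than FOSL2, against 2.96% for FOS and 3.13% for JUN.

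Counted together, 5 of 10 members had a shared region within 200 kb (JUN, JUNB, JUND, FOS and FOSB), beside 19.6% of all protein-coding genes. With replicate 1 peaks alone it was the same 5 genes, beside 23.2%, and with replicate 2 peaks 6, FOSL1 being added, beside 27.0%. As nearest protein-coding gene of a shared region the count was 2 of 10, beside 5.02%. None of the 10 had a shared region touching its body, beside 2.8%. The median distance to the nearest shared region was 185 kb over the 10 members and 796 kb over all protein-coding genes. These 10 distances do not run to 10 separate regions, since BATF has the region of FOS as its nearest and BATF3 that of ATF3. When only peaks with a score not below their list's median were kept, 2 members had a shared region within 200 kb and 0 had one at an end, beside 10.3% and 0.463% of all protein-coding genes.

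**Figure D3:**
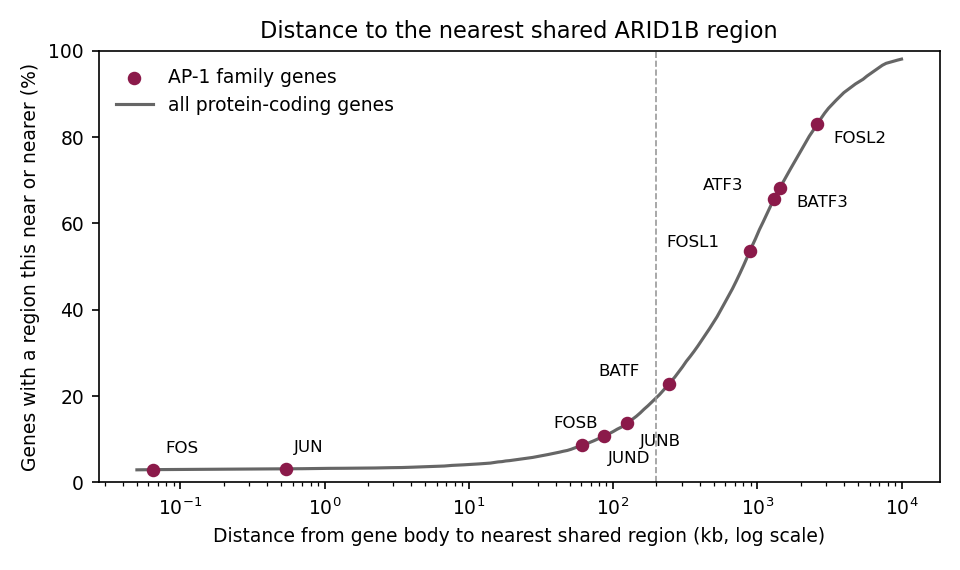
Share of all protein-coding genes (grey line, %) whose nearest shared ARID1B region lies at the given distance from the gene body or nearer (kb, log scale), with the AP-1 family genes as points on that line and the dashed line at 200 kb. FOS and JUN lie at 0.065 and 0.539 kb, FOSB, JUND and JUNB between 61.3 and 126 kb, and the other 5 members beyond 200 kb.

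Replicate agreement near the members was as follows. All 7 replicate 1 peaks near members overlapped a replicate 2 peak (100%, exact Clopper-Pearson 95% interval 59.0 to 100), beside 73.5% of the whole list. Of the 10 replicate 2 peaks, 7 overlapped a replicate 1 peak (70.0%, 34.8 to 93.3), beside 72.4% of the whole list. The 3 that did not were those at the JUN start, 98.3 kb upstream of JUN, and near FOSL1. Intervals cover counting error only, and several of these peaks share the JUN locus.

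Scores near the members in replicate 1 ran from 40 to 153 with a median of 54, beside a list median of 74, and 2 of 7 were above it. In replicate 2 they ran from 37 to 241 with a median of 102, beside a list median of 75, and 6 of 10 were above it. The median widths were 328 bp near members and 290 bp in the whole list for replicate 1, and 308 and 300 bp for replicate 2. In replicate 1 the peaks near FOSB, FOS and JUNB were narrow, at 191, 199 and 200 bp, where the narrowest peak of the list had 191 bp. The other replicate 1 peaks near members were 328 to 401 bp wide.

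**Figure D4:**
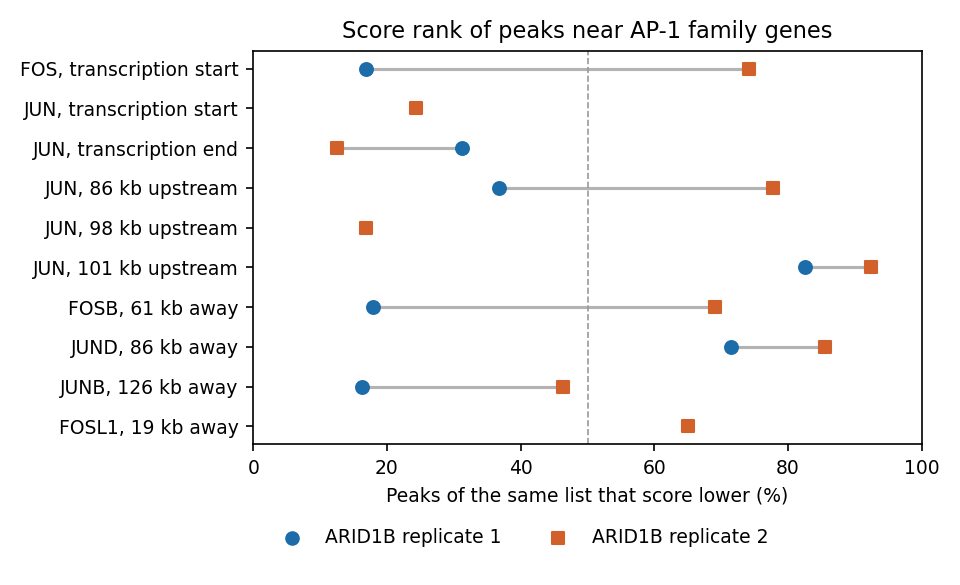
Share of peaks in the same list (%) that score lower than each peak near an AP-1 family gene, with blue circles for replicate 1, orange squares for replicate 2, a grey line joining shared peaks and a dashed line at 50%. The pair 101 kb upstream of JUN stands highest at 82.5% and 92.4%, and the FOS pair stands far apart at 16.9% and 74.2%.

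Of the 7 shared regions, 6 had the higher score in replicate 2, all but that at the JUN transcription end. Over the whole series, 50.9% of the 1313 shared regions did, and 78.0% of the 164 at protein-coding gene ends, where 5 of the 7 lie. Whether scores of the lists share a scale is not known, so the ratios below describe the deposited values only. The log2 ratio of the replicate 2 score to the replicate 1 score had a median of 0.85 over these 7 and of 0.03 over all 1313 shared regions. It was 1.57 at FOS, 1.30 at the region near FOSB, 0.85 near JUNB, 0.63 near JUND, 1.20 and 0.66 at the JUN regions 86 and 101 kb upstream, and -0.55 at the JUN transcription end. A ratio below that of FOS was found in 97.9% of all shared regions. The ratio also moved with position over the whole series: its median was 0.61 over the 164 shared regions at protein-coding gene ends and -0.02 over the 1149 elsewhere. Of the 5 at such an end, 2 lay at a member and 3 at a neighbouring gene, and the part this has in the members' ratios was not tested. At gene ends, 93.3% of regions had a ratio below that of FOS.

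**Figure D5:**
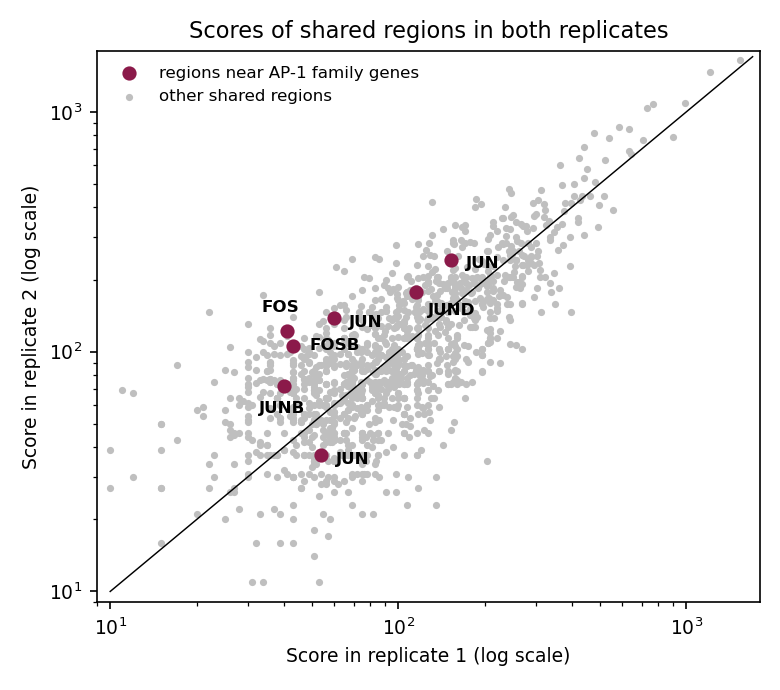
Score of each shared region in replicate 2 against its score in replicate 1 (both log scales), with the 7 regions near AP-1 family genes in dark red, named by member, the other shared regions in grey and the line of equal scores in black. All of the 7 but the JUN transcription end region (54 and 37) lie above the line, and FOS (41 and 122) is farthest from it.

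Other genes that work with AP-1 were read in the same way. Of 19 other AP-1 partner and related basic zipper genes, 1 had a shared region at an end (5.26%), beside 1.05% of all protein-coding genes. This was NFE2L1, a stress-response factor gene, whose start lay within the region at chr17:48047900-48048386, with scores of 89 and 64. In replicate 2 alone, a peak with a score of 31 lay 113 bp from the start of ATF7, and one with a score of 52 lay 331 bp from the transcription end of NFE2L3. Within 200 kb of a shared region lay 8 of the 19 (42.1%), beside 19.6% of all protein-coding genes, and 5 (26.3%) were the nearest gene of one, beside 5.02%. JDP2, the gene of a Jun dimerization protein located between FOS and BATF, was among the 8 through the FOS region.

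None of the 23 kinases upstream of AP-1, the 11 transcription factors that act on FOS and JUN, the 32 other immediate early genes or the 20 AP-1 target genes had a shared region at an end. With a share of 1.05% among all protein-coding genes, lists of this size can be without one. In replicate 2 alone, a peak with a score of 37 lay 157 bp from the start of the target gene VIM, which encodes the intermediate filament protein vimentin. Within 200 kb of a shared region lay 6 of the kinases (26.1%), 3 of the factors (27.3%), 5 of the immediate early genes (15.6%) and 2 of the target genes (10.0%), to be read beside the 19.6% of all protein-coding genes. The immediate early genes near a shared region without one at an end were EGR1, ARC, PLK3, KLF6 and DUSP6.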

How the data were processed

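Per the labels' protocols, chromatin was fixed with formaldehyde and sonicated, and libraries were amplified by PCR. The submitters' processing notes name bcl2fastq 2.20.0.422, Bowtie2 2.3.4.1, MACS2 2.1.2 and hg38. The sources used here do not give settings, peak threshold, duplicate handling or use of the input. The authors deposited 1 peak list per replicate with a whole-number score per peak, of unstated scale. The lists hold no counts, so depth is unknown.

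Starts were converted to count from 1. Genes came from RefSeq (GRCh38.p14), with 58961 of 59792 kept on assembled chromosomes; promoters and strand came from a RefSeq promoter table. Of the members, FOSL1 and BATF3 had no entry there. Peaks overlapping by at least 1 bp were shared, and connected peaks formed 1 region. Distances run between the nearest edges of a peak and a gene body. Python 3.11 was used, and the assignments were tested on simulated data.

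The members and gene lists were chosen with earlier results of these data known. All members and their peaks are named, with genes those peaks touch, and up to 4 genes of each other list with a shared end region; genes of those lists named without one were picked once their values had been seen. Alternatives were end windows of 500 and 5000 bp, distances of 100 and 500 kb, 50% reciprocal overlap and centres within 200 bp. Peaks at or above the median score and each replicate alone were also used. For nearest genes, the nearest annotated start was used in place of the gene body as a further alternative. Some genes of the other lists are not reported here.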

Additional observations from a re-analysis of the deposited data

How the results depend on the processing

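Of 33 recomputed values, 25 stayed within 1.5 times the reported count or within the reported interval. With a 500 bp window, 50% reciprocal overlap or centres within 200 bp, 1 member in place of 2 had a shared region at an end. FOS was left each time, beside 0.831%, 0.972% and 1.02% of all protein-coding genes. Among peaks at or above the median score of their list, members with a shared region at an end numbered 0, beside 0.463% of all protein-coding genes. Members with a shared region within 200 kb numbered 2, beside 10.3%. Shared regions within 200 kb of a member numbered 2, and shared regions nearest to a member 1. The share of replicate 2 peaks near members found in replicate 1 was 33.3% of 6 peaks. Fewer peaks enter that setting, and the share over the whole list was not computed there. With replicate 1 or replicate 2 alone, members at an end numbered 2 both times, beside 1.14% and 1.8% of all protein-coding genes. Members within 200 kb numbered 5 and 6, beside 23.2% and 27.0%. Peaks within 200 kb numbered 7 and 10, and peaks nearest to a member 4 and 6. Replicate 2 thus gave the higher number wherever they differed. No paired analysis was possible because the series has 1 group of ChIP replicates. The lists hold neither read counts nor an input track, so a missing peak, such as that at the JUN start in replicate 1, may lie just under the authors' threshold, and no error can be put on a score.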

Other observations

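Among the other lists, some genes were the nearest protein-coding gene of 1 shared region each, and those reported are as follows. MEF2C, a factor gene that acts on JUN, had its region just over 200 kb away (scores of 270 in replicate 1 and 103 in replicate 2). A region touched the body of KLF6, an immediate early zinc-finger gene (49 and 91), of BACH2, a basic zipper repressor gene (56 and 91), and of the adhesion gene ITGA2 (87 and 75). DUSP6, the gene of a phosphatase that acts on ERK, had one 20.6 kb away (65 and 64), and RPS6KA1, the gene of a kinase downstream of ERK, one 45.6 kb away (79 and 146). MAF and NFE2L3 had theirs at 466 kb (65 and 46) and 270 kb (38 and 64). These genes were named after their values were seen, and no test was made.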
